A study of Homo sapiens with 12 samples.

Results

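The genes described here are the main cytosolic and mitochondrial heat shock chaperones and their transcription factor: HSPA1A, HSPA1B, HSPA8, HSP90AA1, HSP90AB1, DNAJB1, HSPH1, HSPD1, HSPE1 and HSF1. They were taken by name rather than by a cut on their values, although earlier results of these data were known. All 10 were found by symbol among the 61860 genes of each of 2 count tables. RNA had been sequenced from 22Rv1, a human prostate cancer cell line, in a study of how RB and the transcription factor ETS1 bear on CDK4/6 inhibitor response. There were 4 groups of 3 libraries each, which are cells given siRNA against ETS1, the controls of that knockdown, cells given siRNA against ZNF783, a zinc finger protein, and the separate controls of that second knockdown. All groups share the same line and culture medium, and the sources used here give no siRNA sequence, dose, control reagent or harvest time. Whether replicates came from separate cultures is not said in the labels, so the p-values measure the spread between these libraries only, which may be technical. In bulk RNA, fewer cells that express a gene and less of its RNA per cell cannot be told apart.

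Chaperones of the HSP70 family bind exposed hydrophobic stretches of unfolded proteins and release them in a cycle driven by ATP. HSPA8 is the constitutive cytosolic member and HSPA1A and HSPA1B are the stress-inducible copies. DNAJB1, a J-domain protein, delivers clients and starts ATP hydrolysis, and HSPH1, an HSP110 protein, exchanges the nucleotide. HSP90 takes over partly folded clients such as kinases and steroid hormone receptors. HSP90AA1 encodes the inducible cytosolic form and HSP90AB1 the constitutive one. In the mitochondrial matrix HSPD1 forms the HSP60 chamber and HSPE1 the HSP10 lid. HSF1 is held inactive by chaperones and, when freed by unfolded protein, binds heat shock elements in the promoters of these genes.

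Total counts ran from 13518177 to 48996691 per library. The libraries held the transcripts of a luminal prostate line, with all 8 luminal markers detected in every library, for example KRT8 at 403 to 657 CPM (counts per 1e+06, scaled by the trimmed mean of M values, TMM). Of 10 markers of leukocytes, endothelium and fibroblasts, CD3E had 0 counts in all 12 libraries, CDH5 at most 2 and PECAM1 at most 1, while LUM and COL1A1 lay between 12.7 and 56.0 CPM. ETS1 had 0, 3 and 0 counts with its siRNA and 0, 1 and 0 in its controls, at or below a floor of 3 counts, so a loss of its transcript could not be measured. ZNF783 stood at 28.7, 27.4 and 27.99 CPM with its siRNA and at 33.8, 34.9 and 35.7 CPM in its controls. Its level was also lower with ETS1 siRNA, at 12.5, 18.7 and 18.5 CPM against 21.0, 21.6 and 22.3 CPM in the ETS1 controls. A lower ZNF783 level was thus not particular to the ZNF783 siRNA. ETS1 siRNA replicate 1 stood apart: in a chi-square test of counts it reached 40.3 and 38.9 per degree of freedom against the other replicates of its group, compared with 1.36 to 2.93 for all other replicate pairs. The values of the members with ETS1 siRNA are therefore given with and without this library. Those of other chaperone genes are given mainly without it, a choice made knowing that none of them passed with it. Their calls with ETS1 siRNA thus depend on leaving this library out.

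Heat shock elements were looked for in the RefSeq promoters of these genes (GRCh38.p14, 250 bases before to 50 after each listed start). The motif GAANNTTC, an inverted pair of element units that reads the same on both strands, was present in 2377 of 35116 promoters (6.77%). The longer form GAANNTTCNNGAA or TTCNNGAANNTTC, which is the same site read on either strand and always contains the pair, was present in 172 (0.49%). The long form was found in a promoter of HSPA8, HSP90AA1, HSP90AB1 and HSPD1, and the pair alone in those of HSPA1A, HSPA1B and DNAJB1. Neither form was found in the listed windows of HSPH1 and HSPE1, which says only that these letters are not there, and no window was read for HSF1. The HSPD1 match printed below lies outside the HSPE1 window (chr2:197500129-197500428) but inside the annotated HSPE1 gene (chr2:197499994-197503457). The matches before the start are printed 5′ to 3′ on the strand of the gene, because they show which members share the element and how its copies differ, with the matched bases in capitals and 6 flanking bases in lower case where the window allows.
HSPA1A, pair, chr6:31815431-31815450, plus: accctgGAATATTCccgacc
HSPA1B, pair, chr6:31827627-31827646, plus: cccctgGAATATTCccgacc
HSPA8, distal long form, chr11:123062348-123062372, minus: gagcttGAAAGTTCCAGAAcgctgc
HSPA8, proximal long form, chr11:123062173-123062197, minus: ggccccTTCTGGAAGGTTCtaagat
HSP90AA1, long form, chr14:102087114-102087138, minus: gggttcTTCCGGAAGGTTCgggagg
HSP90AB1, distal long form, chr6:44247772-44247796, plus: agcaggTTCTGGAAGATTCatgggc
HSP90AB1, proximal long form, chr6:44247825-44247849, plus: agattgTTCTGGAAGCTTCtggatt
DNAJB1, distal pair, chr19:14518461-14518480, minus: ggggcgGAAGGTTCtggagg
DNAJB1, proximal pair, chr19:14518431-14518450, minus: gctctgGAAGCTTCcgccgg
HSPD1, overlapping long forms, chr2:197500062-197500090, minus: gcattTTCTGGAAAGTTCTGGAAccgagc

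The capitals are the same in HSPA1A and HSPA1B, whose matches end 98 and 97 bases before their starts. The nearest match ended 42 bases before the start in HSPA8, 75 in HSP90AA1, 99 in HSP90AB1, 39 in DNAJB1 and 227 in HSPD1. By GENCODE release 29 the HSPA1A and HSPA1B matches lie outside the annotated genes, and those of HSP90AB1 and DNAJB1 lie inside the genes but in no exon. The printed stretches of HSPA8, HSP90AA1 and HSPD1 lie in annotated exons and hold no coding bases. A match describes these letters and is not a measured binding site.

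The members covered a wide span of levels. Per kilobase of exon, HSP90AB1 was at 773 ± 3.76 CPM in the ETS1 controls and 690 ± 4.5 in the ZNF783 controls (SD, n = 3 each), the highest member in both and ranked 8 of 18990 and 9 of 17254 tested genes. HSPD1 followed at 526 ± 14.6 and 421 ± 8.56 CPM per kilobase. HSPA8 stood at 514 ± 7.34 and 352 ± 2.04, and HSP90AA1 at 411 ± 9.98 and 417 ± 6.03. These 4 genes were thus among the 26 highest in each experiment. HSPE1 (42.6 and 36.3) and DNAJB1 (37.8 and 30.1 CPM per kilobase) were about an order of magnitude lower, followed by HSPH1 (18.6 and 17.3) and HSF1 (8.19 and 10.9). In both control groups the libraries of HSPD1, HSPA8 and HSP90AA1 did not overlap one another in level per kilobase, except HSPD1 and HSPA8 in the ETS1 controls and HSPD1 and HSP90AA1 in the ZNF783 controls. HSPA1A and HSPA1B were last, at 0.421 and 0.426 CPM per kilobase in the ETS1 controls and 0.151 and 0.167 in the ZNF783 controls, and their ranges overlapped. Counts of the HSP10 lid gene were far below those of the HSP60 chamber gene in every library. Reads shared with pseudogenes, described below, may be missing from these counts.

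**Figure D1:**
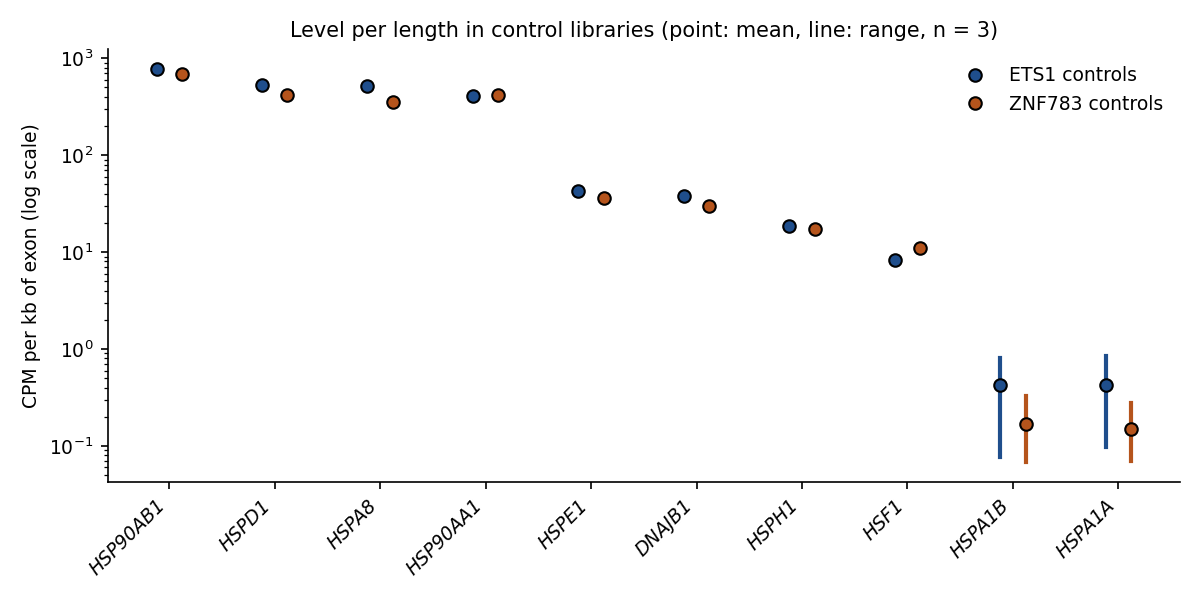
Level of each member in the control libraries, in CPM per kilobase of exon on a log scale. Points are means and lines the range over the 3 control libraries of the ETS1 experiment (blue) and the ZNF783 experiment (orange). HSP90AB1 is highest at 773 and 690, and HSPA1A and HSPA1B are lowest, below 1.

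Some of these counts are uncertain. HSPA1A (ENSG00000204389, chr6:31815464-31817946, plus strand, 1 exon) and HSPA1B (ENSG00000204388, chr6:31827735-31830255, plus strand, 1 exon) are near-identical neighbours. Of all 100-base windows of the HSPA1A transcript 69.9% occur unchanged in HSPA1B, and 68.8% the other way round. Reads from such stretches cannot be placed uniquely, and the file headers show no option that would count them. HSPD1 (ENSG00000144381, chr2:197486581-197516737, minus strand) and HSPE1 (ENSG00000115541, chr2:197499994-197503457, plus strand) share 281 exon bases on opposite strands, 14.2% of the exon bases of HSPE1. Shared exon bases with a gene on the opposite strand also occur for HSP90AA1 (197 with WDR20), DNAJB1 (211 with TECR) and HSF1 (139 with DGAT1), 2.62% to 5.75% of each member. On its own strand HSPA1B shares 920 exon bases (36.5%) with AL671762.1, which had 0 counts in all 12 libraries, and HSPE1 shares 192 (9.71%) with the read-through gene HSPE1-MOB4, which had at most 4. Counting ignored strand, so reads from either gene of such a pair cannot be told apart there. Annotated pseudogenes took few counts beside their parents: 16 of 26 HSPE1 pseudogenes had counts, together 4.34% of the HSPE1 total, 11 of 18 HSPD1 pseudogenes 1.38%, and 14 of 17 HSPA8 pseudogenes 0.076%. Reads that fit a member and a pseudogene equally well would be missing from both, so these shares do not measure such losses.

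The first comparison asked which members differ when ETS1 is targeted. With all 6 libraries, 0 of the 10 members were called by edgeR's quasi-likelihood test at an adjusted p below 0.05, against 0.0461% of all genes (9 of 19542, 0.0256% higher and 0.0205% lower). At an unadjusted p below 0.05 there were 2, HSP90AA1 and HSP90AB1, against 3535 of all 19542 genes. DESeq2 and limma-voom also called 0 members. They had 3 and 2 at an unadjusted p below 0.05, against 3137 and 3557 of all genes. Without ETS1 siRNA replicate 1, 5 of the 10 were called, 1 higher and 4 lower, against 23% of all genes (4649 of 20237, 9.96% higher and 13% lower). HSP90AA1 was then higher, and HSP90AB1, HSPA8, DNAJB1 and HSF1 were lower. The median log2 fold change of the 10 members was -0.14 with all libraries and -0.09 without that library, against 0.0066 and -0.0042 over all genes tested.

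**Figure D2:**
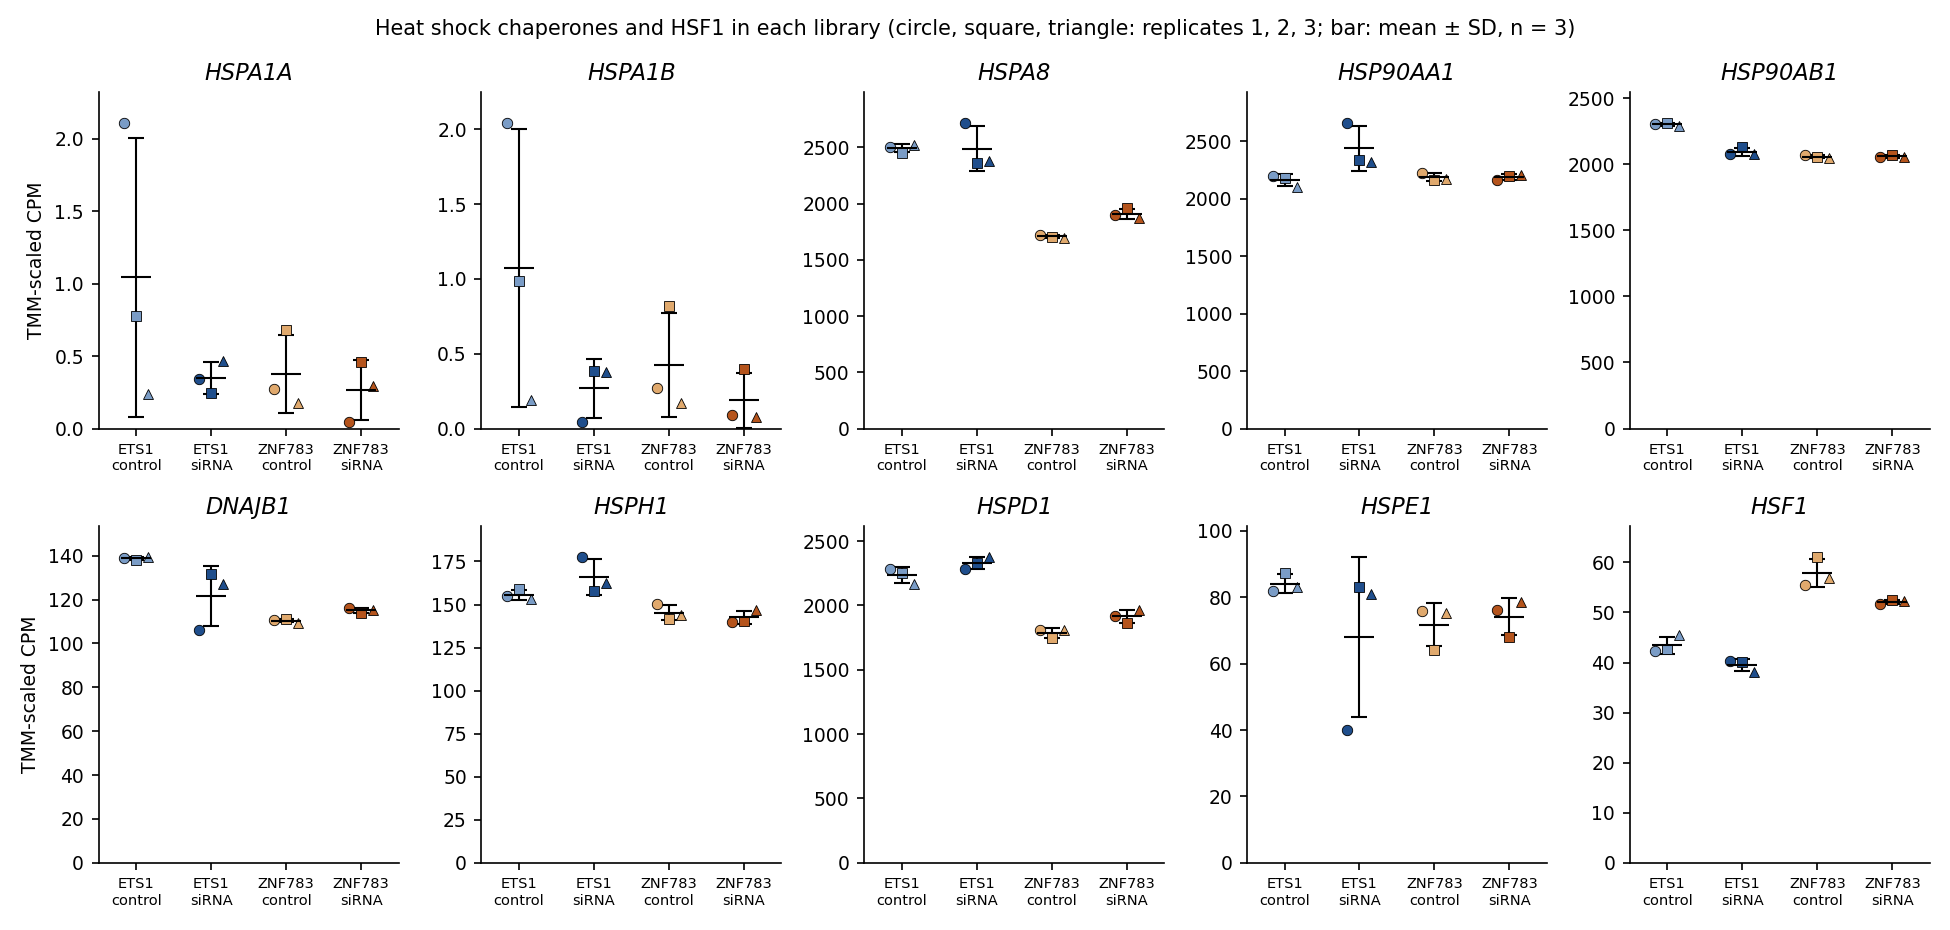
TMM-scaled CPM of the 10 members in each of the 12 libraries, a panel per gene with its own axis from 0. Circles, squares and triangles are replicates 1, 2 and 3, and bars are mean ± SD (n = 3). With ETS1 siRNA, replicate 1 lies apart from the other replicates for HSPA8, HSP90AA1, DNAJB1, HSPH1 and HSPE1.

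HSPA8 (ENSG00000109971, chr11:123057489-123063230, minus strand), the constitutive HSP70, was at 2719.8, 2363 and 2382.5 CPM with ETS1 siRNA, and at 2503, 2451.5 and 2519.9 CPM in the controls. Replicate 1 was above all controls and replicates 2 and 3 below all of them. Over 6 libraries the log2 fold change was -0.0018 (SE 0.065, 95% interval -0.16 to 0.15, adjusted p = 0.992, edgeR). Without replicate 1 HSPA8 fell by 0.08 on the log2 scale (SE 0.026, adjusted p = 0.023). That call was lost when libraries were scaled by size alone (-0.05, adjusted p = 0.222).

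The stress-inducible HSP70 genes gave few counts. HSPA1A had 8, 12 and 16 counts with ETS1 siRNA and 63, 23 and 10 in the controls. HSPA1B had 1, 19 and 13 counts with ETS1 siRNA and 61, 29 and 8 in the controls. Control replicate 1 was highest for both genes and control replicate 3 lay among the siRNA libraries, so the groups overlapped. The log2 fold changes of -1.53 for HSPA1A (SE 0.78, adjusted p = 0.329) and -1.73 for HSPA1B (SE 0.86, adjusted p = 0.322) did not pass. Summed over the near-identical copies, the pair gave -1.67 (SE 0.76, adjusted p = 0.299). The sum does not restore reads that fit both copies and were not counted. Leaving out 1 library at a time moved HSPA1A between -2.08 and -0.49 and HSPA1B between -2.31 and -0.84, the weakest values coming without control replicate 1. Without siRNA replicate 1 they were -1.53 (adjusted p = 0.527) and -1.38 (adjusted p = 0.553).

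Of the HSP70 partners, DNAJB1 (ENSG00000132002, chr19:14514770-14529770, minus strand) was at 106, 132 and 127 CPM with ETS1 siRNA and at 139, 138 and 139 in the controls. All 3 siRNA libraries lay below all controls, replicate 1 furthest. The log2 fold change was -0.19 over all 6 libraries (SE 0.084, adjusted p = 0.29), and without replicate 1 DNAJB1 fell by 0.11 (SE 0.031, adjusted p = 0.0076). With a correction for GC content and transcript length that value was -0.07 (adjusted p = 0.0616) and no longer passed, nor did it with scaling by library size alone (-0.08, adjusted p = 0.0737). HSPH1 (ENSG00000120694, chr13:31134974-31162388, minus strand), the nucleotide exchange factor, was at 178, 158 and 162 CPM with ETS1 siRNA and at 155, 159 and 153 CPM in the controls. The groups overlapped, with replicate 1 above the rest, and HSPH1 did not pass (0.09, adjusted p = 0.422; 0.03 without replicate 1, adjusted p = 0.493).

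The cytosolic HSP90 genes lay on opposite sides of their controls. HSP90AA1 (ENSG00000080824, chr14:102080738-102139699, minus strand) measured 2661, 2333 and 2316 CPM with ETS1 siRNA and 2197, 2181 and 2099.5 CPM in the controls, so that all siRNA libraries were above all controls. The log2 fold change was 0.17 (SE 0.066, 95% interval 0.019 to 0.33, adjusted p = 0.248). Without replicate 1 HSP90AA1 rose by 0.10 (SE 0.026, adjusted p = 0.00317), to 107.2% of control. HSP90AB1 (ENSG00000096384, chr6:44246166-44253888, plus strand) measured 2076, 2127.5 and 2075 CPM with ETS1 siRNA and 2307, 2312 and 2291 CPM in the controls, so that all siRNA libraries were below all controls. Here replicate 1 did not stand apart. The log2 fold change was -0.14 with all libraries (SE 0.044, 95% interval -0.24 to -0.036, adjusted p = 0.202), and without replicate 1 HSP90AB1 fell by 0.14 (SE 0.026, adjusted p = 3.19e-05), to 90.8% of control. Quality weights in limma-voom, which gave replicate 1 a weight of 0.0931, called both on all 6 libraries (0.11, adjusted p = 0.00992, and -0.13, adjusted p = 0.00124), as well as HSF1 (-0.14, adjusted p = 0.0418). Over all genes that weighted fit called 3734 of 19542. The fit of all 12 libraries, with 1 estimate of the spread for both experiments, called both too (adjusted p = 0.0413 and adjusted p = 0.0153, edgeR). It called 1875 of 19594 genes, against 9 of 19542 in the fit of the 6 ETS1 libraries.

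The ratio of HSP90AA1 to HSP90AB1 counts was 1.28, 1.097 and 1.12 with ETS1 siRNA and 0.952, 0.943 and 0.916 in the controls. It was above 1 in all siRNA libraries and below 1 in all controls. The log2 difference of 0.31 had an exact permutation p of 0.1 (two-sided), the smallest that 3 libraries against 3 can give. In the ZNF783 experiment the same ratio was 1.05, 1.06 and 1.07 with siRNA and 1.07, 1.05 and 1.06 in the controls (log2 difference -0.0012, exact permutation p = 0.8).

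The mitochondrial chaperonin genes did not pass with ETS1 siRNA, with or without replicate 1 under TMM scaling. HSPD1 measured 2287, 2330 and 2377.5 CPM with ETS1 siRNA and 2287, 2251 and 2166 CPM in the controls. The highest control and the lowest siRNA library met at the same level, and HSPD1 had a log2 fold change of 0.06 (SE 0.047, adjusted p = 0.481; 0.07 without replicate 1, adjusted p = 0.0572). Without replicate 1 and with scaling by library size alone, HSPD1 passed (0.0996, adjusted p = 0.00375). HSPE1 measured 40.1, 83.0 and 80.9 CPM with ETS1 siRNA and 81.9, 87.5 and 83.0 CPM in the controls. Its replicate 1 alone lay far below the rest, and replicates 2 and 3 were near the lowest control. The log2 fold change of HSPE1 was -0.30 over all libraries (SE 0.25, 95% interval -0.88 to 0.28, adjusted p = 0.506) and -0.04 without replicate 1 (SE 0.035, 95% interval -0.11 to 0.028, adjusted p = 0.441). The ratio of HSPE1 to HSPD1 counts was 0.0175 in that library, against 0.034 to 0.0389 in the other libraries of the experiment.

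HSF1 (ENSG00000185122, chr8:144291591-144314722, plus strand), the heat shock transcription factor, was at 40.2, 40.2 and 38.07 CPM with ETS1 siRNA and at 42.2, 42.7 and 45.4 CPM in the controls. All siRNA libraries were below all controls, and replicate 1 was not set apart. This gave a log2 fold change of -0.14 (SE 0.063, adjusted p = 0.295). Without replicate 1 HSF1 fell by 0.16 (SE 0.044, adjusted p = 0.0044), but with the GC and length correction this became -0.03 (adjusted p = 0.602). Log2 fold changes of all genes followed GC content in the ETS1 comparison (Spearman -0.499 across genes, which are not independent replicates), and exon GC was 64.7% in HSF1, the highest of the members, against 39.95% in HSPH1, the lowest. The part of GC content in these values was otherwise not tested. HSP90AA1 (0.08, adjusted p = 0.00424), HSP90AB1 (-0.14, adjusted p = 1.82e-06) and HSPA8 (-0.08, adjusted p = 0.00267) passed in the same corrected fit.

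**Figure D3:**
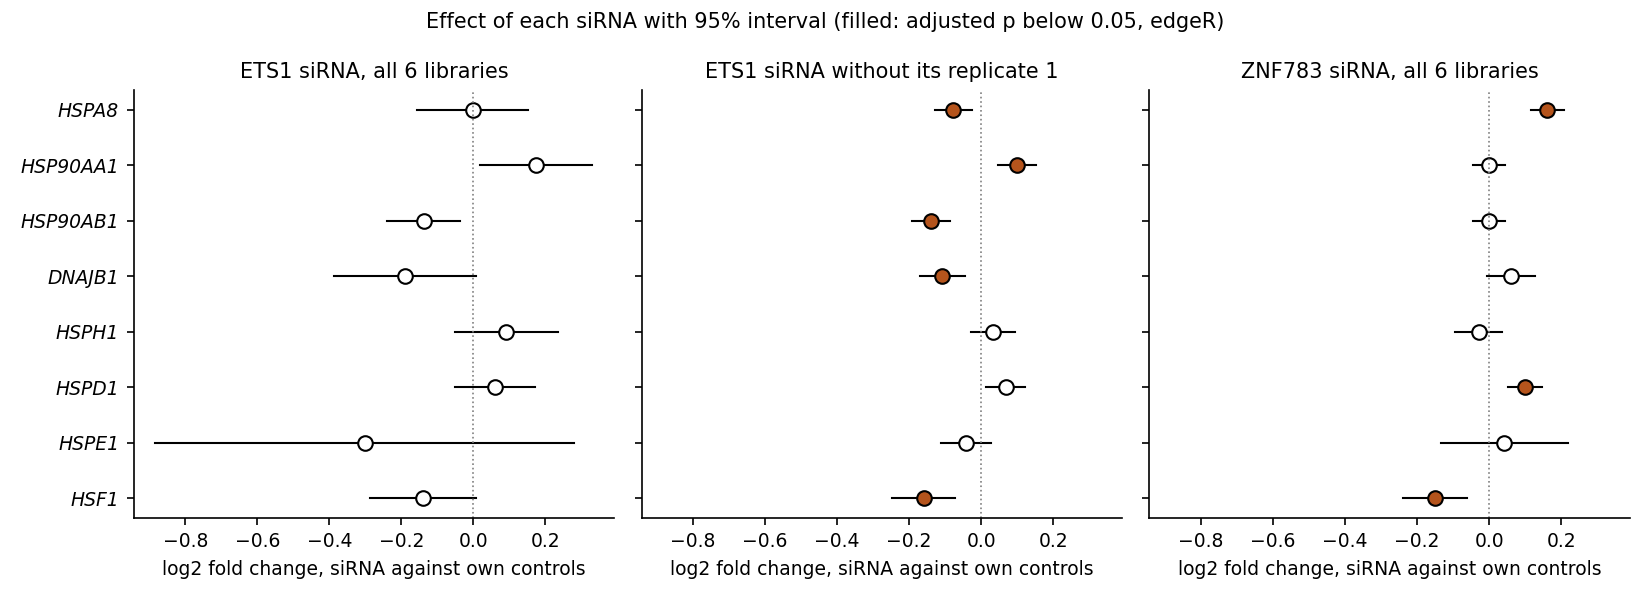
Log2 fold change of 8 members, siRNA against its own controls, with 95% intervals. Filled points have an edgeR adjusted p below 0.05 over all genes. The left panel uses all 6 ETS1 libraries and has no filled point, the middle panel leaves out ETS1 siRNA replicate 1 and has 5, and the right panel shows the ZNF783 experiment with 3. HSPA1A and HSPA1B are not drawn because their intervals are far wider.

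The second comparison asked which members differ when ZNF783 is targeted. HSPA8 and HSPD1 rose and HSF1 fell, which makes 3 of the 8 members tested, against 25.1% of all genes (4428 of 17630, 11.3% higher and 13.8% lower). HSP90AA1 and HSP90AB1 were at 99.98% and 100.1% of control, and they, DNAJB1, HSPH1 and HSPE1 did not pass. HSPA1A and HSPA1B had too few counts to be tested. The median log2 fold change of the 8 was 0.02, against 0.0017 over all genes tested. In the fit of all 12 libraries, with 1 estimate of the spread for both experiments, 0 members were called, against 824 of 19594 genes (edgeR). At an unadjusted p below 0.05 there were 3, against 3424 of all genes.

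HSPA8 was at 1902.5, 1958 and 1868 CPM with ZNF783 siRNA and at 1717, 1707 and 1697 CPM in the controls. Every siRNA library was above every control. HSPA8 rose from 1707 ± 9.88 to 1909.7 ± 45.2 CPM (SD, n = 3 each), a log2 fold change of 0.16 (SE 0.023, adjusted p = 4.47e-07, edgeR). It was 0.14 to 0.18 when any 1 library was left out, and 0.16 with the GC and length correction (adjusted p = 1.1e-08). ZNF783 siRNA libraries held 1, 8 and 4 counts of HSPA1A against 4, 10 and 3 in the controls, and 2, 7 and 1 counts of HSPA1B against 4, 12 and 3. These groups overlapped, at or near the floor of 3 counts.

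DNAJB1 was at 116, 114 and 115 CPM with ZNF783 siRNA and at 111, 111 and 109.5 CPM in the controls. The groups did not overlap, but the log2 fold change of 0.06 (SE 0.033) did not pass (adjusted p = 0.179). After correction for GC and length it was 0.11 and passed (adjusted p = 0.00626). HSPH1 was at 140, 141 and 147 CPM with ZNF783 siRNA and at 150.2, 142 and 144 CPM in the controls. The groups overlapped, with a log2 fold change of -0.03 (adjusted p = 0.559). Corrected for GC and length, it was -0.08 (adjusted p = 0.0324). The ratio of HSPA8 to HSPH1 counts was 13.6, 13.9 and 12.7 with ZNF783 siRNA against 11.4, 12.1 and 11.8 in its controls, without overlap (log2 difference 0.19, exact permutation p = 0.1, the smallest possible). In the ETS1 experiment it was 15.3, 14.98 and 14.7 with siRNA against 16.15, 15.4 and 16.5 in the controls, lower and also without overlap (log2 difference -0.096, exact permutation p = 0.1).

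HSP90AA1 was at 2161.5, 2194 and 2205 CPM with ZNF783 siRNA and at 2223.5, 2165.5 and 2172.5 CPM in the controls. HSP90AB1 was at 2051, 2069.7 and 2056 CPM with ZNF783 siRNA and at 2071, 2057 and 2044.5 CPM in the controls. The groups of both genes overlapped. The log2 fold changes were -0.00035 for HSP90AA1 (95% interval -0.045 to 0.045, adjusted p = 0.994) and 0.001 for HSP90AB1 (95% interval -0.043 to 0.046, adjusted p = 0.98). These intervals leave room for changes of a few percent in either direction.

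HSPD1 was at 1914.5, 1864 and 1966 CPM with ZNF783 siRNA and at 1808, 1745 and 1807 CPM in the controls. All siRNA libraries lay above all controls, and HSPD1 rose by 0.10 on the log2 scale (SE 0.024, adjusted p = 0.00119), or by 0.07 once corrected for GC and length (adjusted p = 0.00532). Its lid partner HSPE1 was at 76.1, 68.0 and 78.5 CPM with ZNF783 siRNA and at 75.8, 64.2 and 75.3 CPM in the controls. Replicate 2 was the lowest of both groups, the groups overlapped, and HSPE1 did not pass (0.04, SE 0.076, adjusted p = 0.744).

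HSF1 was at 51.7, 52.5 and 52.4 CPM with ZNF783 siRNA and at 55.5, 61.1 and 56.97 CPM in the controls, all siRNA libraries below all controls. HSF1 fell by 0.15 (SE 0.044, adjusted p = 0.00939), to 90.1% of control. The call was lost with DESeq2 (adjusted p = 0.0702), without siRNA replicate 1 (-0.14, adjusted p = 0.0512) and without control replicate 2, the highest control (-0.11, adjusted p = 0.0973). After correction for GC and length the value was 0.0091 (adjusted p = 0.912), so the direction did not hold. Log2 fold changes followed GC content in this comparison as well (Spearman -0.377 across genes).

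**Figure D4:**
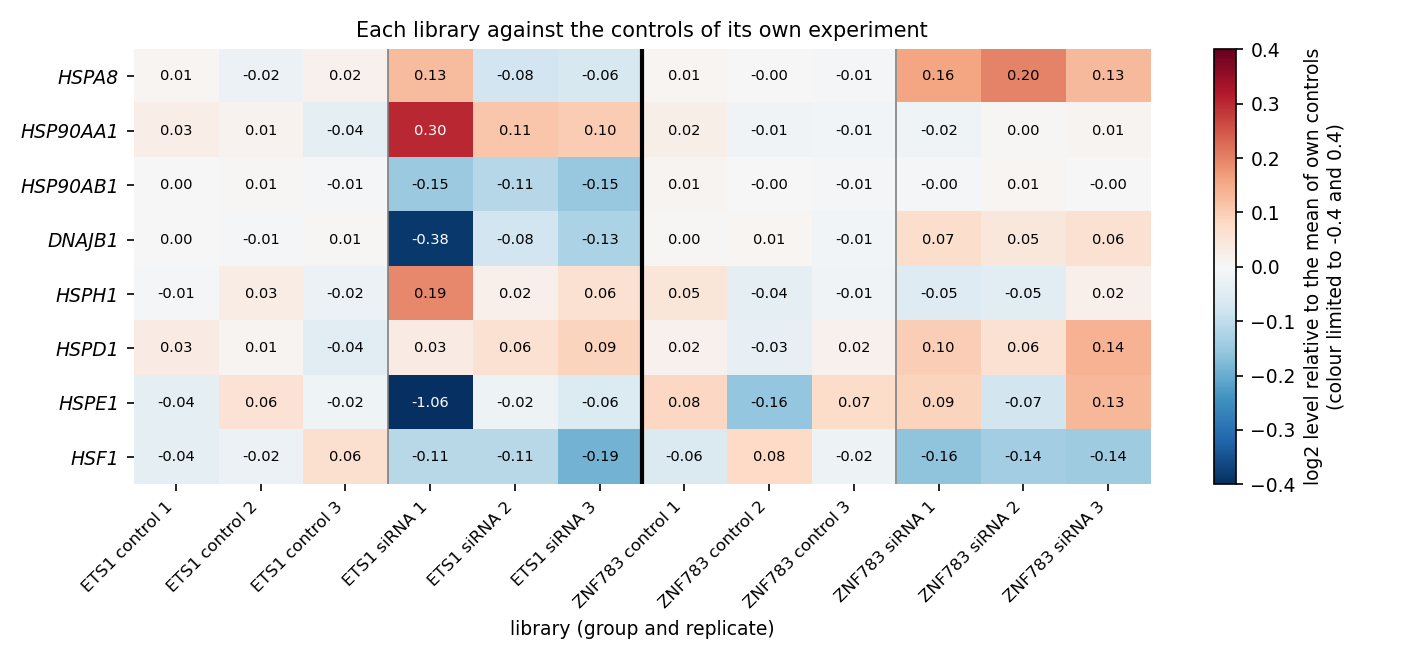
Log2 level of 8 members in each library relative to the mean of the controls of its own experiment, with the value printed in each cell and colour limited to -0.4 and 0.4. The left 6 columns are the ETS1 experiment and the right 6 the ZNF783 experiment. HSP90AB1 is lower in all 3 ETS1 siRNA libraries and near 0 in all ZNF783 siRNA libraries, HSPA8 is higher in all 3 ZNF783 siRNA libraries, and HSPE1 is at -1.06 in ETS1 siRNA replicate 1.

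The effects of both siRNAs were compared directly, each against its own controls, in a fit of all 12 libraries. Of the 10 members 0 differed (edgeR, against 1.68% of all genes, 330 of 19594, 1.11% higher and 0.577% lower). At an unadjusted p below 0.05 there were 3, against 2928 of all genes. They were HSP90AA1 (ETS1 effect minus ZNF783 effect 0.19, adjusted p = 0.214), HSP90AB1 (-0.13, adjusted p = 0.164) and DNAJB1 (-0.24, adjusted p = 0.223). DESeq2 called HSP90AB1 (-0.13, adjusted p = 0.00479), against 671 of all genes. On the same 12 libraries limma-voom with quality weights called HSPA8 (-0.22, adjusted p = 1.73e-05), HSP90AB1 (-0.12, adjusted p = 0.000531), HSP90AA1 (0.12, adjusted p = 0.00366) and DNAJB1 (-0.15, adjusted p = 0.0245). It called 2409 of all genes. It gave ETS1 siRNA replicate 1 a weight of 0.0624, so that fit is close to leaving this library out. With no expression filter edgeR called HSPE1 (-0.35, adjusted p = 0.0253), against 978 of all genes. Without ETS1 siRNA replicate 1, 4 of the 10 differed, against 13.7% of all genes (2735 of 20018, 6.25% higher and 7.41% lower). HSPA8 had the largest of these differences (-0.24, SE 0.032, adjusted p = 1.67e-07), being lower with ETS1 siRNA and higher with ZNF783 siRNA. DNAJB1 (-0.17, SE 0.043, adjusted p = 0.0043), HSP90AB1 (-0.14, SE 0.031, adjusted p = 0.000831) and HSP90AA1 (0.099, SE 0.032, adjusted p = 0.0302) also differed. For HSF1, lower with each siRNA, the difference was -0.01 (95% interval -0.14 to 0.12), and for HSPD1 it was -0.03 (95% interval -0.10 to 0.036).

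Levels also differed between the experiments, in their controls as well, although these were counted in separate tables and no test was made across them. HSPA8 averaged 2491 ± 35.6 CPM in the ETS1 controls and 1707 ± 9.88 in the ZNF783 controls, and every library of the ETS1 experiment was above every library of the ZNF783 experiment. The same held for HSPD1 (2235 ± 61.8 and 1787 ± 36.3 CPM) in all 12 libraries. HSF1 had the opposite order, with 43.5 ± 1.73 CPM in the ETS1 controls and 57.9 ± 2.89 in the ZNF783 controls. HSP90AA1 was close in both sets of controls (2159 ± 52.4 and 2187 ± 31.7 CPM). Within each experiment the shifts with siRNA were smaller than these gaps for HSPA8, HSPD1 and HSF1.

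Across the 12 libraries, each centred on its own controls, HSP90AA1 and HSP90AB1 varied in opposite directions (Pearson r -0.84, and -0.853 without ETS1 siRNA replicate 1). HSPD1 and HSF1 did so too (-0.909 and -0.925). HSPA8 and DNAJB1 had an r of 0.082 over 12 libraries and 0.839 over 11. These are descriptions over libraries that share groups, controls and depth. The genes whose centred pattern was most like that of HSPA8 among 10070 genes were DENND4C (0.968), AP2B1 (0.965) and TMEM97 (0.963). For HSP90AA1 they were BAZ1A (0.986), SLC39A6 (0.986) and RTF1 (0.985), which fell to 0.944, 0.939 and 0.937 without that library. For HSPD1 they were SLC25A13 (0.947), APOLD1 (0.936) and ZNF551 (0.931). For HSF1, ERGIC1 (0.945) was among the 3 most alike.

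The other chaperone genes, 86 genes in 8 lists mainly of the cytosol and mitochondria but with the microsomal HSPA13, gave no single direction. With ETS1 siRNA 0 of 76 tested were called over all 6 libraries (edgeR, 11 at an unadjusted p below 0.05, against 3535 of all 19542 genes). Without replicate 1, 12 were higher and 15 lower of 77, and with ZNF783 siRNA 9 were higher and 18 lower of 77, which is 35.1% called in each against the 23% and 25.1% of all genes given above. Nothing particular to chaperones is read from these shares. In the next sentences calls and values for ETS1 siRNA are those without replicate 1, and all values are log2 fold changes. None of these ETS1 siRNA calls was made with all 6 libraries. Values corrected for GC and length are given for the members alone. The part of GC content in the values of these other genes, also those that fell with both siRNAs, was not tested.

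**Figure D5:**
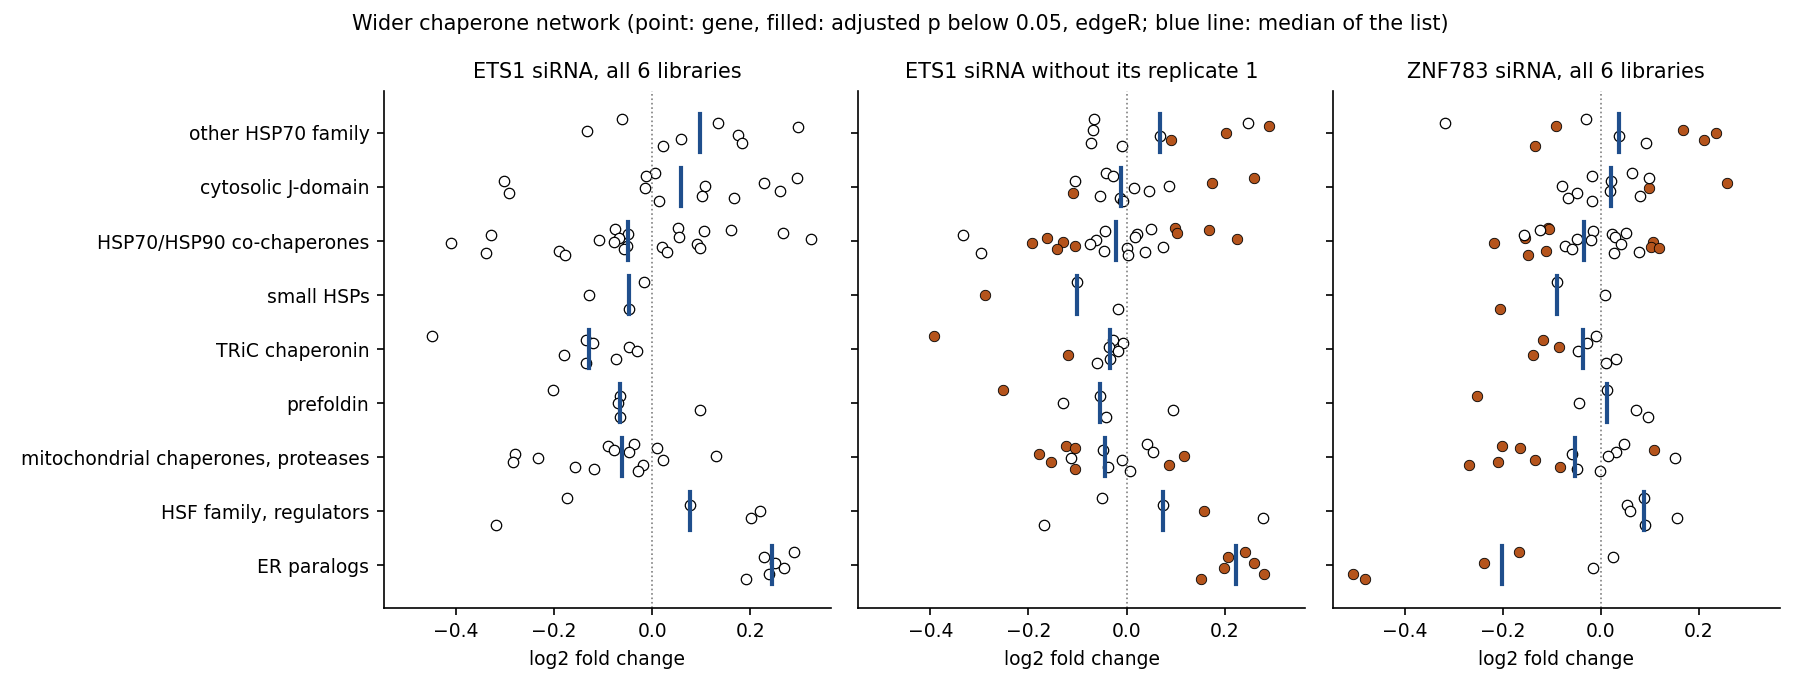
Log2 fold changes of the other chaperone genes by list, with ETS1 siRNA (all 6 libraries), ETS1 siRNA without its replicate 1, and ZNF783 siRNA. Points are genes, filled where the edgeR adjusted p was below 0.05, and blue lines are list medians. The endoplasmic reticulum paralogs lie right of 0 with ETS1 siRNA and mostly left of 0 with ZNF783 siRNA.

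Among the other HSP70 genes 3 of 9 were higher and 0 lower with ETS1 siRNA, and 3 were higher and 2 lower of 9 with ZNF783 siRNA. HSPA13, a microsomal member, rose with ETS1 siRNA (0.29, adjusted p = 1.17e-08) and fell with ZNF783 siRNA (-0.09, adjusted p = 0.0319), and this difference passed with all 12 libraries (0.40, adjusted p = 0.00771). HSPA2 (0.20 and 0.23) and HSPA4L, an HSP110 relative (0.09 and 0.21), rose with both. HSPA9, the mitochondrial HSP70, fell with ZNF783 siRNA (-0.14, adjusted p = 4.72e-05). Of 12 cytosolic J-domain genes 2 were higher and 1 lower with ETS1 siRNA, led by DNAJA4 (0.26, adjusted p = 3.08e-05). With ZNF783 siRNA 2 were higher and 0 lower, DNAJB4 (0.26, adjusted p = 0.00144) and DNAJB6 (0.10, adjusted p = 0.0218).

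Of 22 co-chaperones of HSP70 and HSP90, 4 were higher and 5 lower with ETS1 siRNA, and 3 were higher and 6 lower with ZNF783 siRNA. CDC37, which loads kinases onto HSP90, fell with both (-0.16, adjusted p = 3.49e-05, and -0.16, adjusted p = 0.000205). CHORDC1, an HSP90 co-chaperone, rose with ETS1 siRNA (0.22, adjusted p = 4.83e-05), and STIP1, which links HSP70 to HSP90, fell (-0.14, adjusted p = 9.86e-05). In the omitted ETS1 siRNA replicate 1 CDC37 was at 207 CPM and STIP1 at 437 CPM. Both lay above all their controls there (188 to 199 and 403 to 421 CPM). FKBP5, an immunophilin of steroid receptor complexes, fell with ETS1 siRNA (-0.13, adjusted p = 0.000168) and rose with ZNF783 siRNA (0.11, adjusted p = 0.00119). The difference for FKBP5 passed only without ETS1 siRNA replicate 1 (-0.24, adjusted p = 1.48e-06; -0.17, adjusted p = 0.196 with it). HSPBP1, a nucleotide exchange factor (-0.22, adjusted p = 0.000284), and UNC45A, a myosin chaperone (-0.15, adjusted p = 0.000333), fell with ZNF783 siRNA.

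Of 9 small heat shock protein genes 3 were tested. HSPB6 fell with ETS1 siRNA (-0.29, adjusted p = 4.84e-09) and HSPB8 with ZNF783 siRNA (-0.21, adjusted p = 0.00682), and 0 rose with either. In the omitted ETS1 siRNA replicate 1 HSPB6 was at 82.5 CPM, above all its controls (74.3, 75.7 and 74.6 CPM). Among the 8 subunits of TRiC, the cytosolic chaperonin that folds actin and tubulin, 2 fell with ETS1 siRNA and 3 with ZNF783 siRNA, and 0 rose. CCT2 had the largest of these changes (-0.39, adjusted p = 5.57e-17, with ETS1 siRNA), and its difference between the siRNAs passed with all 12 libraries (-0.43, adjusted p = 0.00757). CCT7 fell with both (-0.12 and -0.14). Of the 5 tested prefoldin subunits, which hand nascent chains to TRiC, PFDN1 fell with ETS1 siRNA (-0.25, adjusted p = 4.08e-06) and PFDN2 with ZNF783 siRNA (-0.25, adjusted p = 6.58e-05).

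Mitochondrial chaperones and proteases, some of the matrix and some of the intermembrane space, had 2 higher and 5 lower of 14 tested with ETS1 siRNA and 1 higher and 6 lower with ZNF783 siRNA. GRPEL1, the nucleotide exchange factor of mitochondrial HSP70 (-0.18, adjusted p = 3.2e-05), and TRAP1, the mitochondrial HSP90 (-0.10, adjusted p = 0.00785), fell with ETS1 siRNA. The matrix protease LONP1 fell with ZNF783 siRNA (-0.27, adjusted p = 1.28e-09), while HSPD1 rose. The disaggregase CLPB (-0.12 and -0.20) and the protease HTRA2 (-0.15 and -0.21) fell with both. Of the 5 tested relatives and regulators of HSF1, HSF2 rose with ETS1 siRNA (0.16, adjusted p = 0.00531). With ZNF783 siRNA 0 were called (edgeR, 1 at an unadjusted p below 0.05, against 6222 of all 17630 genes).

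The paralogs of these chaperones in the endoplasmic reticulum formed the last list. With all 6 ETS1 libraries 0 of 6 passed (edgeR), against 0.0461% of all genes, with HSPA5 at 0.24 (adjusted p = 0.156) and HSP90B1 at 0.27 (adjusted p = 0.147). At an unadjusted p below 0.05 there were 6, against 3535 of all 19542 genes. All 6 rose with ETS1 siRNA without replicate 1, HSPA5 by 0.28 (adjusted p = 1.49e-12) and HSP90B1 by 0.20 (adjusted p = 2.68e-08), against 23% of all genes called. With ZNF783 siRNA 4 of 6 fell and 0 rose, against 25.1% called. The difference between the siRNAs passed for 4 of the 6 with all 12 libraries, against 1.68% of all genes: HSPA5 (0.76, adjusted p = 6.44e-05), HYOU1 (0.69, adjusted p = 0.000182), DNAJC3 (0.50, adjusted p = 0.00193) and DNAJB11 (0.47, adjusted p = 0.00578). HSPA5, the endoplasmic HSP70, and HSPA8, its cytosolic relative, lay on opposite sides of 0: without replicate 1 HSPA5 rose and HSPA8 fell with ETS1 siRNA, and with ZNF783 siRNA HSPA5 fell (-0.51, adjusted p = 4.95e-21) and HSPA8 rose. Beside these values, 5 of 8 luminal markers fell with ZNF783 siRNA. With ETS1 siRNA 0 of 8 passed over all 6 libraries (edgeR, 4 at an unadjusted p below 0.05), and without replicate 1 there were 4 lower and 1 higher, KRT8 among the lower (-0.24, adjusted p = 1.12e-09). Of the 10 markers of other cell types 3 were tested with ZNF783 siRNA, and COL1A1 (-0.23, adjusted p = 0.00535) and LUM (-0.26, adjusted p = 0.0135) fell. The summed level of those 10 markers was 37.4 to 40.6 CPM with ZNF783 siRNA and 43.8 to 48.6 CPM in its controls, and 60.1 to 70.9 and 60.2 to 63.1 CPM in the ETS1 groups. Their part in the chaperone values was not tested.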

How the data were processed

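RNA from 12 libraries of 22Rv1 cells was prepared with a directional kit, per the labels' protocols. The deposited unit is raw counts of reads per gene in 1 table for either knockdown, which the authors made with featureCounts 2.0.1 from paired-end alignments over exons of a GRCh38 annotation of release 107, without a strand option, per the file headers. Alignment file names end in hisat, with no aligner version given in the sources used here, and the submitters' processing notes name hg38. Symbols were matched for 61757 of 61860 genes (99.8%), and coordinates and exon lengths come from GENCODE release 29 of GRCh38.

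Both comparisons of siRNA with control used edgeR 4.0.16 in R 4.3.3 (default expression filter, TMM, robust quasi-likelihood F test, group as the only term), with Benjamini-Hochberg adjustment over all genes tested and calls at an adjusted p below 0.05. The difference between the effects was tested as a contrast over all 12 libraries. Levels are TMM-scaled CPM per experiment. The test script was tested on simulated data. All 10 members are named, with ETS1, ZNF783, up to 4 members of each list with the smallest adjusted p, and the 3 genes most like HSPA8, HSP90AA1, HSPD1 and HSF1 with a mean of at least 10 CPM. Some genes this rule picks are not reported here. The members and lists were chosen with earlier results of these data known. The contrast of HSPA5 with HSPA8 was singled out after its values were seen. Alternatives were other scalings, filters, DESeq2 1.42.0, limma-voom (limma 3.58.1) with and without quality weights, the replicate number as a block, all 12 libraries in 1 fit, a GC and length correction, a threshold of 0.01 and leaving out each library. The GC correction and scaling by library size without ETS1 siRNA replicate 1 were added after seeing the data. No replicate pair differed as little as sampling noise, so none was merged. The 95% intervals come from the edgeR fit, and the floor of 3 counts covers counting error only, since PCR reads are not independent molecules.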

Additional observations from a re-analysis of the deposited data

Results flagged for a closer look

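For 4 of the 10 members the effects of the siRNAs differed in a test of the difference itself, once ETS1 siRNA replicate 1 was left out. The share over all genes was 13.7%. The difference, ETS1 effect minus ZNF783 effect on the log2 scale, was -0.24 for HSPA8 (adjusted p = 1.67e-07, edgeR), -0.14 for HSP90AB1 (adjusted p = 0.000831), -0.17 for DNAJB1 (adjusted p = 0.0043) and 0.099 for HSP90AA1 (adjusted p = 0.0302). With all 12 libraries the differences were -0.15, -0.13, -0.24 and 0.19 in the same order, and 0 of them passed with edgeR (adjusted p = 0.349, 0.164, 0.223 and 0.214). On these libraries limma-voom with quality weights called all 4 (-0.22, -0.12, -0.15 and 0.12, adjusted p = 1.73e-05, 0.000531, 0.0245 and 0.00366). That fit called 2409 of all genes. Its weight for ETS1 siRNA replicate 1 was 0.0624, so it is not a separate check with that library in. The experiments were counted in separate tables with their own controls, so the experiment and the siRNA target cannot be told apart in these differences.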

How the results depend on the processing

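Of the values recomputed under other settings, 519 kept direction and side of the threshold, 37 newly passed, 6 no longer passed and 30 changed sign. For ETS1 siRNA the 9 genes called became 253 with no expression filter, 708 with DESeq2, 23 with limma-voom, 3734 with quality weights, 1875 in the fit of all 12 libraries, 25 with the GC and length correction and 0 at a threshold of 0.01 (edgeR, 3535 at an unadjusted p below 0.05). Scaling by library size alone gave 9 higher and 4 lower, against 5 and 4. Leaving out 1 library at a time gave 0 to 4649 genes and 0 to 5 members, the highest without ETS1 siRNA replicate 1. Without that library the correction gave 3952 genes and 3 members, and scaling by library size alone 4682 genes (2819 higher, 1863 lower, against 2016 and 2633) and 4 members. Quality weights called 3 members and the fit of all 12 libraries 2. For ZNF783 siRNA the 4428 genes became 2696 with DESeq2, 824 in the fit of all 12 libraries (0 members, 3 at an unadjusted p below 0.05) and 2931 at a threshold of 0.01, and lay between 3485 and 4127, with 2 to 3 members, when 1 library was left out. The 330 genes of the difference became 978 with no filter, 671 with DESeq2, 2409 with quality weights, 666 with the GC and length correction (362 higher, 304 lower, against 217 and 113) and 100 at a threshold of 0.01. They were 140 to 2735 when 1 library was left out (highest without ETS1 siRNA replicate 1, and below 180 without any 1 ETS1 control or any ZNF783 library), 3357 without ETS1 siRNA replicate 1 with the correction and 2699 with library size alone. The cause of these changes was not tested.

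The replicate numbers did not pair the libraries (correlations of same-numbered deviations 0.097, -0.243 and 0.317 in the ETS1 experiment and -0.079, -0.044 and -0.06 in the ZNF783 experiment). With the replicate number as a block 0 genes (edgeR, 3139 at an unadjusted p below 0.05), 4476 genes and 54 genes were called with ETS1 siRNA, with ZNF783 siRNA and for the difference, and 0 and 3 members.

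Among the sign changes, 1 was in a called value: HSF1 with ZNF783 siRNA, -0.15 before the GC and length correction. Leaving out 1 library at a time, HSPA8 with ETS1 siRNA lay between -0.0773 and 0.0347. HSPA8 with ETS1 siRNA became 0.02 with upper-quartile factors (0.0195), 0.0251 with library size alone, 0.0009 in the fit of all 12 libraries, and 0.0347, 0.0252 and 0.0075 without siRNA replicate 2, siRNA replicate 3 or control replicate 3. With the correction HSPH1 became -0.0571 (-0.0363 without siRNA replicate 1), HSPD1 -0.0009 and HSF1 0.0924 for ETS1 siRNA, and HSF1 0.0091 for ZNF783 siRNA. With ZNF783 siRNA HSP90AA1 became 0.0021 with DESeq2 size factors, 0.0071 with upper-quartile factors or no filter, 0.0112 with library size alone, 0.0039 with a filter of 1 CPM, 0.002 with DESeq2, and 0.0115 and 0.0146 without siRNA or control replicate 1 (range with 1 library left out -0.0047 to 0.0146). HSP90AB1 became -0.0104 in the fit of all 12 libraries, and -0.0018 and -0.0031 without siRNA replicate 2 or control replicate 3 (range to 0.0088). HSPE1 became -0.0257 without control replicate 2 (range to 0.1017). For the difference HSPA1B became 0.0529 with quality weights, 0.299 without ETS1 control replicate 1 and 0.524 without ZNF783 siRNA replicate 2, and HSPA1A 0.1004 without ETS1 control replicate 1, while the lowest values, -1.489 and -1.672, came without ZNF783 control replicate 2. HSF1 became -0.01 without ETS1 siRNA replicate 1 (-0.0489 with the correction) and -0.0174 without ZNF783 control replicate 2 (range to 0.0603). HSPA1A and HSPA1B rest on 1 to 63 counts per library. Reads that fit both near-identical copies may not have been counted, so their true levels cannot be read from these counts.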
